A study of Mus musculus with 6 samples.

Results

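Circular RNAs (circRNAs) whose back-splice junction joins exons more than 50000 bp apart in the genome made up 1340 of the 10413 exonic circRNAs listed in these 6 libraries (12.9%). They were chosen by annotation among the circRNAs listed, and listing needs at least 2 junction reads in a library. The type given for the circRNA had to be exon, and its end minus its start had to exceed 50000. All types together came to 11895 circRNAs. The libraries were made from the hippocampus, as labelled, of 14-month-old male C57BL/6 mice injected under the skin once a day for 14 days. For 3 libraries the mice received dihydrotestosterone (DHT), an androgen that aromatase does not turn into oestrogen, and for the other 3 corn oil alone; the sample descriptions also name the first a testosterone group. The labels do not say whether a library is 1 animal, so every p-value measures the spread between libraries only. A mean above 5 FPKM was found for 8 of 9 markers of the striatum (Drd1 was at 0) and for 2 of 8 markers of hippocampal fields (Dsp was at 0), so the tissue is named only as the labels give it. Junction reads per library ran from 43512 to 55325.

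An exonic circRNA forms when a splice donor is joined to an acceptor that lies upstream of it, which closes 1 or more exons into a ring without free ends. Such rings resist exonucleases, and they are abundant in brain and in genes of the synapse. The span is the genomic distance between the joined sites, introns included, so a long span says how far apart the sites are and not how long the ring is. Long introns upstream of the acceptor and downstream of the donor are a known feature of circRNA-forming exons.

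The spans also cover other annotated features. A RefSeq miRNA hairpin (build GRCm38.p6) lay inside the span of 29 of the 1340 (2.16%), and 4 of those 29 were listed in all 6 libraries. The mature sequences of these hairpins are shown because they are the small RNAs inside spans that recurred. Capitals mark the seed, bases 2 to 8, and all sequences run 5′ to 3′.
mmu-miR-344-3p: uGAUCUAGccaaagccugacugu
mmu-miR-344c-3p: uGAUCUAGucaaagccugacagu
mmu-miR-344-5p: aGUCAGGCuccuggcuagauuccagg
mmu-miR-344c-5p: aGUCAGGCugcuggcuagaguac
mmu-miR-3092-3p: gAAUGGGGcuguuuccccucc
mmu-miR-3092-5p: aGGGGAAAaugccuuucuccca
mmu-miR-8118: gACAAACAugacuaugcugaca
The hairpins Mir344 and Mir344c shared both seeds and lay in 3 long-span circRNAs of the noncoding gene A230057D06Rik. The one in all 6 libraries (chr7:61813262-61925420, span 112158 bp) had 16, 6 and 16 junction reads in the DHT libraries and 17, 15 and 15 in the oil libraries. The others had 14 and 2 reads. Mir3092 lay in 3 Fndc3b circRNAs, of 45 and 36 reads in all 6 libraries and 7 reads in 2, and Mir8118 in an Rngtt circRNA with 29 reads. None of the 4 circRNAs in all 6 libraries passed the test between treatments (edgeR, adjusted p = 0.996 for each). The files do not give the exons inside a ring, so whether a hairpin is part of any ring was not measured. Another protein-coding gene lay wholly inside the span of 15 of the 1340 (1.12%).

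**Figure D1:**
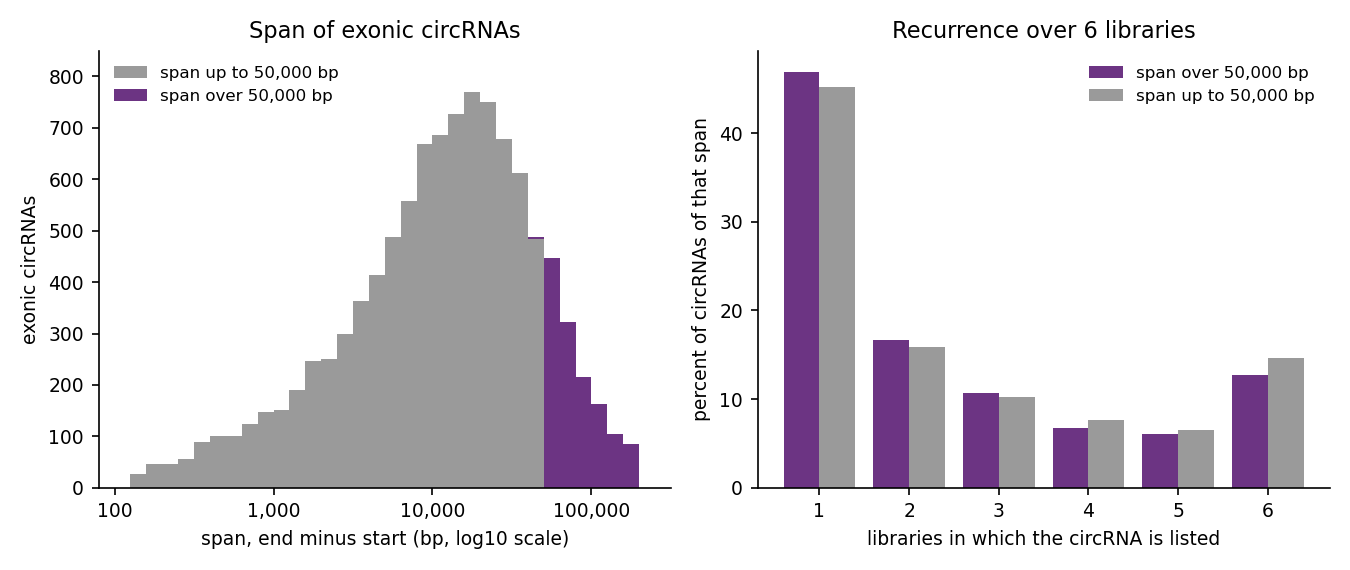
Left, the number of exonic circRNAs by span (bp, log10 scale), with spans over 50000 bp in purple. Right, the percent of circRNAs of each span class listed in 1 to 6 libraries. The long-span class is the upper tail of one continuous distribution, and 46.9% of it was listed in 1 library and 12.8% in all 6.

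The long-span circRNAs came from 592 host genes. The median span of these circRNAs was 72929 bp, against 10510 bp for the other 9073 exonic circRNAs, a difference that the span limit sets. A span over 100000 bp was found in 352 of them, and the longest was 199133 bp, in Rims1. The largest span of any listed circRNA of any type was 199743 bp. Long spans were thus not rare exceptions, but none exceeded 200000 bp, and a limit of the caller, if any, was not given in the sources used here. Host genes with a RefSeq length had a median length of 250136 bp, against 65880 bp for hosts of shorter exonic circRNAs only. This difference follows in part from the choice, since a host must hold the span. The shortest host was 58883 bp, while 1872 of the 2978 hosts of shorter circRNAs only were longer than 50000 bp (62.9%). Of 2459 exonic host genes longer than 50000 bp, 587 gave a long-span circRNA (23.9%). The span covered a median of 27.3% of the host. Just over the limit stood circRNAs of Tlk2 (50051 bp, 5 reads), Rock1 (50075 bp, 5 reads) and Ppp2r3a (50114 bp, 4 reads), and just under it stood those of Gphn (49994 bp, 28 reads), Ptpn4 (49975 bp, 4 reads) and Tenm3 (49934 bp, 90 reads).

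Hosts differed widely in how many long-span circRNAs they gave. One was found in 326 of the 592 hosts and at least 5 in 61 hosts. Dgki, a diacylglycerol kinase, had the most (24 circRNAs, 692 reads), and the active-zone scaffold gene Rims2 had 19 (243 reads). Rere, a transcriptional corepressor, had 15 (509 reads), the vesicle-trafficking gene Nbea 14 (138 reads) and the adhesion receptor Adgrb3 14 (90 reads). The protease gene Tasp1 (358 reads) and the active-zone gene Rims1 (202 reads) had 13 each. The number of circRNAs and the number of reads did not rank the hosts alike: Atxn1 with 9 circRNAs held 1046 reads, and Strbp with 7 held 1174. In 49 hosts every exonic circRNA listed was a long-span one. Over all hosts the median part of a host's exonic junction reads that fell in its long-span circRNAs was 18.4%.

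Long-span junctions mostly used splice sites that shorter circRNAs also used. Of the 1340, 1060 shared a site with a shorter exonic circRNA (79.1%). The upstream site was shared in 869 (64.9%) and the downstream site in 595 (44.4%). A shorter exonic circRNA of the same host lay inside the span of 1120 (83.6%). A long span has more room for one, and like rates for the shorter circRNAs are not given here. Long-span circRNAs also shared sites among themselves: 616 of them started at 248 upstream sites used at least 2 times, and 459 ended at 194 such downstream sites. Members of such groups have a splice site in common and are not independent of each other.

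Strbp, which encodes an RNA-binding protein, shows this sharing. Of its 7 long-span circRNAs, 6 started at 1 upstream site, position 37647285 of chr2 and 56593 bp from the start of the gene on the minus strand, and these 6 held 1133 reads. They ran to 6 different downstream sites. The one with a span of 66612 bp (chr2:37580673-37647285) had 229, 145 and 155 reads in the DHT libraries and 199, 164 and 119 in the oil libraries. The neighbouring spans of 69597 and 60775 bp had 9 and 11 reads over all 6 libraries, so the reads did not follow the span. The same upstream site also began shorter circRNAs, and the one of 23112 bp had 94, 79 and 64 reads in DHT and 89, 93 and 85 in oil. The 50581 bp circRNA had 10, 5 and 4 reads in DHT and 11, 16 and 7 in oil. Long-span circRNAs held 60.5% of the exonic junction reads of Strbp, and its 6 shorter exonic circRNAs held 767 reads.

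**Figure D2:**
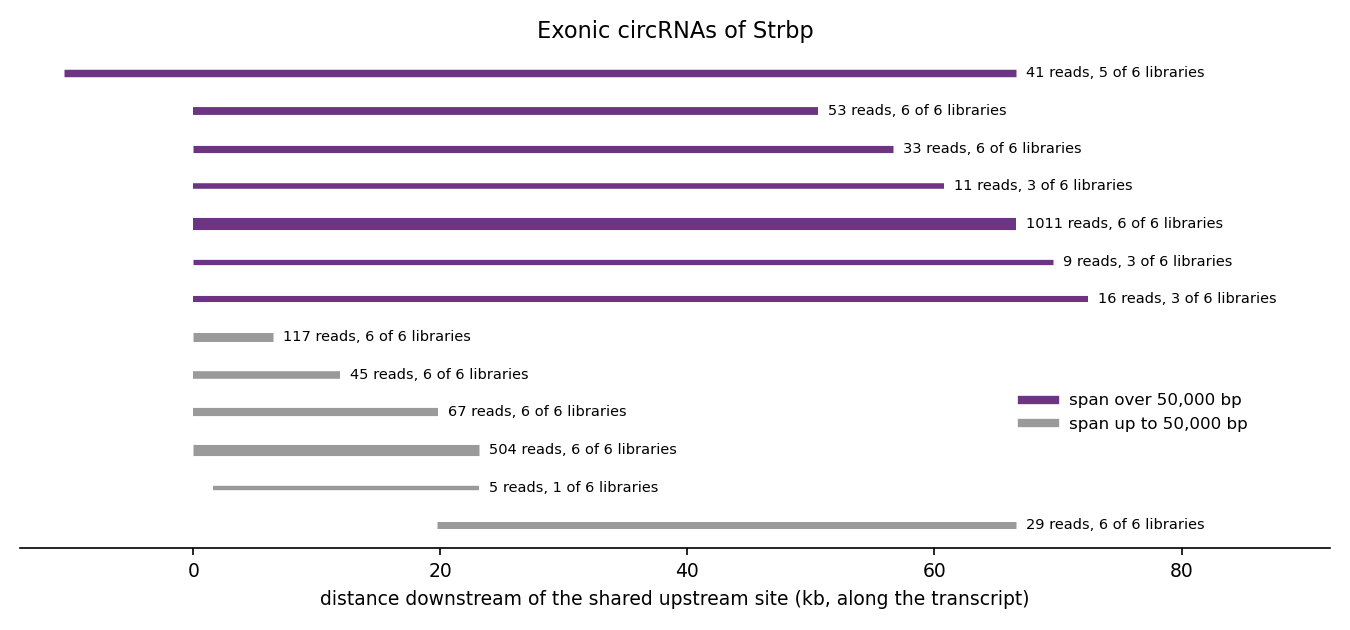
Each line is 1 exonic circRNA of Strbp, drawn from its upstream to its downstream site by distance (kb) from the shared upstream site. Line width grows with the log of the junction reads printed beside it, and the 6 long-span circRNAs (purple) that start at distance 0 hold 1133 of the 1174 reads in long-span circRNAs.

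In Atxn1, which encodes the polyglutamine protein of a spinocerebellar ataxia, all exonic junction reads were in long-span circRNAs (9 circRNAs, no shorter one listed). The leading one spanned 161066 bp (chr13:45795509-45956575), with 123, 95 and 95 reads in DHT and 79, 85 and 67 in oil. The next spanned 104247 bp from the same upstream site, with 58, 48 and 62 reads in DHT and 50, 67 and 69 in oil. The order of the groups was thus opposite in these Atxn1 circRNAs, and neither passed the test (log2 fold change 0.32 ± 0.19 and -0.27 ± 0.25, SE, edgeR adjusted p = 0.996 for both). A further Atxn1 circRNA used an upstream site 3 bases downstream of the shared one: its span was 161063 bp and it had 43 reads, which was 7.33% of the reads of that pair. There were 6 pairs of long-span circRNAs that shared 1 end and had the other 1 to 10 bases apart. In 5 of the 6 the distance was 3 bases, and in the sixth, in the synaptic vesicle gene Syt1, it was 9. In all 6 the end that differed was the upstream one. Besides Atxn1, with 2 pairs, these were Ubn2 with 2 pairs (316 against 14 reads and 162 against 15) and Rims1 (36 against 2). The circRNA with the site farther upstream had more reads in every one of the 6 pairs. Whether such small shifts are separate splice sites or alignments of 1 site was not tested.

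A few circRNAs held much of the signal. The 1340 held 25112 junction reads over the 6 libraries, with a median of 5.5 reads each. The 10 most abundant held 19.5% of these reads and the 50 most abundant 40.2%. The Strbp circRNA of 66612 bp led, with 1011 reads. After scaling to a common library size (CPM of junction reads) it was at 3532 ± 682 CPM in DHT and 3482 ± 641 in oil (SD, n = 3), and the groups overlapped. Ncoa2, a nuclear receptor coactivator, followed with 172, 123 and 114 reads in DHT and 141, 125 and 114 in oil (64718 bp). Those groups overlapped as well.

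The other abundant circRNAs came from genes of several functions. Kcnt2, which encodes a sodium-activated potassium channel, had 140, 58 and 58 reads in DHT and 88, 43 and 101 in oil (87355 bp), the widest spread within groups of the abundant circRNAs given here. Hivep2, a zinc finger transcription factor gene, had 55, 72 and 75 reads in DHT and 60, 64 and 63 in oil. Ubn2, of a histone chaperone complex, had 63, 62 and 44 in DHT and 51, 50 and 46 in oil. The groups overlapped in these 3. Ctnnd2, which encodes delta-catenin of the synaptic junction, had 51, 49 and 36 reads in DHT and 37, 64 and 39 in oil. Ralgps1, an exchange factor gene for Ral GTPases, had 44, 43 and 50 in DHT and 31, 47 and 37 in oil. Arhgap32, which encodes a GTPase-activating protein, had 58, 39 and 44 in DHT and 57, 77 and 54 in oil. After scaling, Arhgap32 and the leading Atxn1 circRNA were the abundant circRNAs given here whose groups did not overlap, the first lower and the second higher in DHT. Neither passed the test (edgeR adjusted p = 0.996 for both). Groups did not overlap for 279 of all 2524 circRNAs tested (11.1%).

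**Figure D3:**
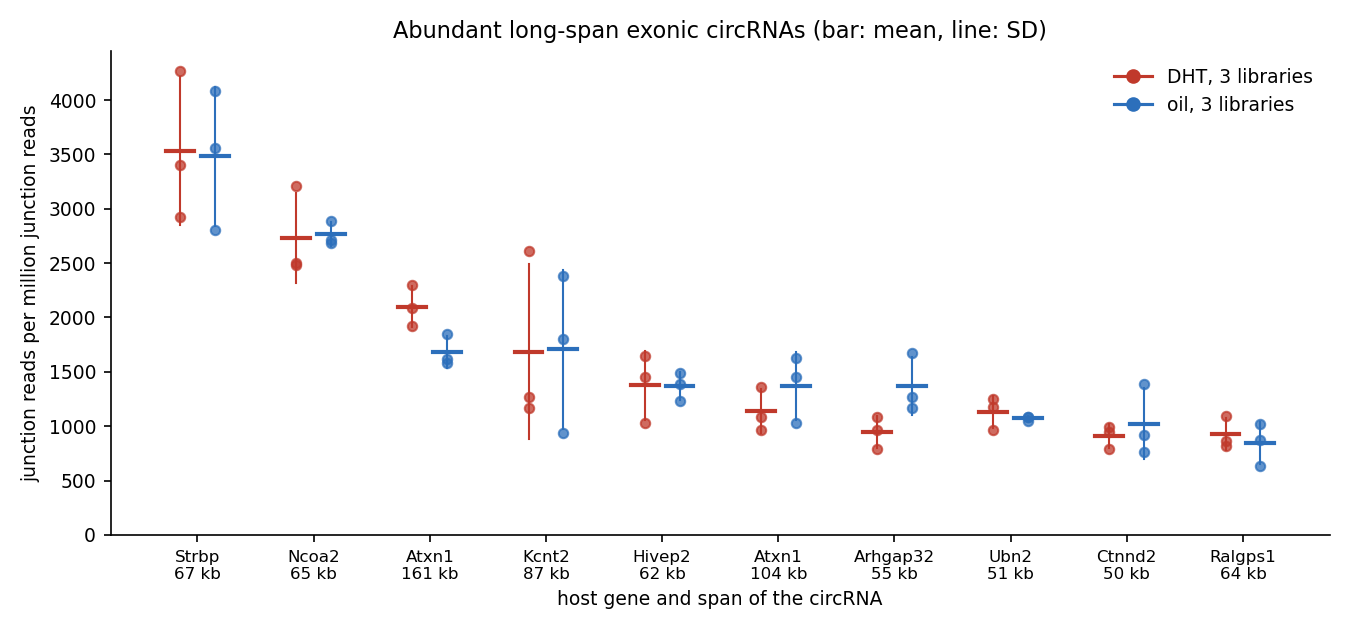
Junction reads in CPM (y axis) of 10 abundant long-span circRNAs, by host gene and span, with 1 point per library, bars at the group means and lines of 1 SD (n = 3 per group). Strbp leads at 3532 in DHT and 3482 in oil, and most groups overlap.

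The circular share, junction reads over junction plus linear reads at the same locus, ranged more than the read counts. Linear reads are counts given in the files beside each listed circRNA, and circRNAs that share a site share part of them. Among the 171 listed in all 6 libraries, the highest mean share was 48.3%, in F8, a coagulation factor gene. F8 had only 3 to 11 junction and 6 to 10 linear reads in a library, and its share was 52.4%, 53.8% and 23.1% in DHT and 52.6%, 55.0% and 52.9% in oil. The noncoding gene Rmst followed at 41.8%, from 31.5% in 1 DHT library to 47.0% in 1 oil library. Ncoa2 had 40.2%, and its circRNA stood out in reads too: 165 to 215 linear reads per library stood beside 114 to 172 junction reads. Akap7, which encodes an anchoring protein of protein kinase A, had 37.6%. The lowest shares were in genes with many linear reads. Syt1, the calcium sensor of synaptic vesicles, had 0.187%, with 2424 to 3147 linear reads per library and 3 to 7 junction reads. Ppp3ca, the calcineurin catalytic subunit, had 0.249%, the scaffold gene Cnksr2 had 0.348% and the RNA-binding protein gene Celf2 had 0.486%. These 4 are abundant neuronal transcripts, and their circRNAs were still listed in all 6 libraries.

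Most long-span circRNAs were seen in few libraries. Of the 1340, 629 (46.9%) were listed in 1 library and 171 (12.8%) in all 6, against 45.2% and 14.6% of the other exonic circRNAs. A circRNA is listed at 2 or more reads, and 260 of the 629 had exactly 2. The largest count of a circRNA listed in 1 library was 17. At 20 to 39 reads in total, 31.9% of the 138 long-span circRNAs were in all 6 libraries, against 28.6% of 973 others, at 40 to 79 reads it was 88.6% against 88.1%, and from 80 reads it was 94.1% of 51 against 98.1%. Within a class of reads the values for long and shorter spans thus lay close, with no test made. Among the long spans, 13.4% of those up to 60000 bp were in all 6 libraries, 15.96% of those above 60000 and up to 80000 bp, and 8.65% of those above 150000 bp, with median reads of 6, 6 and 5. Long spans among those in at least 2 libraries were those of Cep112 (195765 bp, 23 reads), Rims1 (193611 bp, 7 reads), Dgki (192918 bp, 25 reads) and Rims1 (192330 bp, 11 reads). Cep112, a centrosomal protein gene, was in 5 libraries, more than the other 3 circRNAs.

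Compared within each library, the long-span circRNAs had a lower circular share than the other exonic circRNAs. The median share of those listed was 1.63%, 1.64% and 2.05% in the DHT libraries and 1.83%, 2.13% and 1.74% in the oil libraries, against 2.08%, 2.174% and 2.50% and against 2.34%, 2.44% and 2.38% for the others. It was lower in 6 of 6 libraries, with a mean difference of -0.482 ± 0.108 percentage points (SD, n = 6, exact two-sided sign-flip test, p = 0.031, the smallest 6 libraries can give). The part listed in all 6 libraries was also lower, with a mean difference of -2.87 percentage points. That part counts the same circRNAs in every library and only the number listed varies. The 6 differences are therefore not separate measurements, and no p-value is given. Median linear reads were higher in 6 of 6, 235 to 302 against 195 to 248 (exact sign-flip p = 0.031), while median junction reads of all those listed were 4 to 5 in both classes (exact sign-flip p = 1). Among circRNAs in all 6 libraries, median junction reads were 8 to 10 against 10 to 12, lower in 6 of 6 libraries (mean difference -1.67, exact sign-flip p = 0.031). The same circRNAs were measured in every library, so this p covers the spread between libraries and not that between circRNAs. The comparison changed when the others were limited to the 2700 shorter exonic circRNAs of the same hosts. Against these, linear reads were lower in 5 of 6 libraries and the mean difference was -17.9 reads (exact sign-flip p = 0.0625), so its sign depended on which hosts were compared. Median junction reads were also lower in 5 of 6 and equal in the sixth (mean difference -0.833, exact sign-flip p = 0.0625). The median share was lower in 5 of 6 (mean difference -0.209 percentage points, exact sign-flip p = 0.0625), and in the sixth, oil replicate 2, both were 2.13%. Over circRNAs listed in all 6 libraries it was lower in 6 of 6, with a mean difference of -0.465 percentage points (exact sign-flip p = 0.031). Here too the same circRNAs were measured in every library, and the p covers the spread between libraries only. The part listed in all 6 libraries was also lower, with a mean difference of -9.84 percentage points, again with the same circRNAs counted in every library. Host by host the difference was small: in 312 hosts with both classes in at least 2 libraries, the long-span median share was lower in 181 and higher in 131, with a median difference of -0.148 percentage points.

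**Figure D4:**
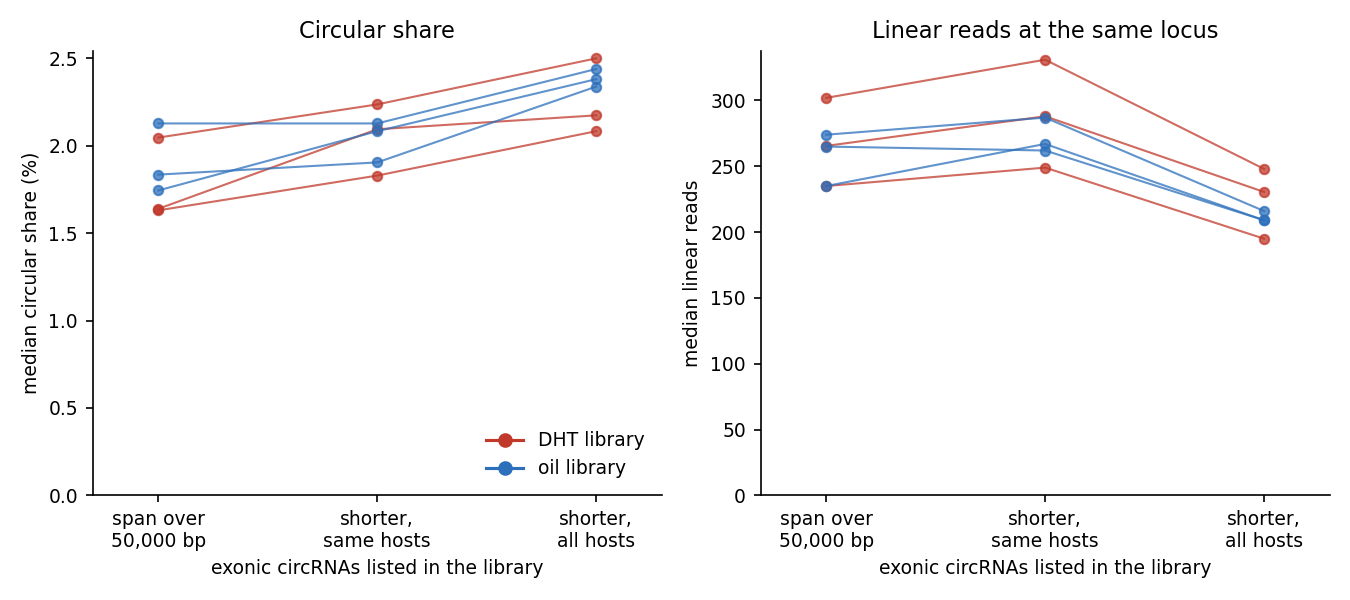
Median circular share (left, percent) and median linear reads (right) of the exonic circRNAs listed in each library, for long spans, for shorter spans of the same hosts and for all shorter spans, with 1 line per library (red DHT, blue oil). The share is lowest for long spans in 6 of 6 libraries against all shorter ones, while linear reads are highest for shorter circRNAs of the same hosts in 5 of 6.

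Sites of long-span circRNAs seldom bounded a listed skipping event. The event tables held an event that skips exactly the exons between the junction sites for 11 of the 1340 (0.821%) and for 300 of the other exonic circRNAs (3.31%). Of the 1340, only 23.1% had a start that was an exon start in the event tables, and 25.5% an end that was an exon end. What those tables list therefore limits the matches. These rates are not given for the other exonic circRNAs, so 0.821% and 3.31% cannot be compared directly. Of the 11, the circRNA with the most reads was that of Mboat2, a phospholipid acyltransferase gene (56431 bp, chr12:24878191-24934622). It matched an event with 4 exons of 376 bases and another with 3 exons of 280 bases. It had 37, 14 and 20 reads in DHT and 26, 19 and 19 in oil. The matching skipping form was at 0 FPKM in 5 of the 6 libraries and at 0.608 in oil replicate 1, so a linear product that lacks these exons was listed there only. The adhesion gene Cntn5 had a circRNA of 81964 bp that matched an event with 5 exons of 681 bases and another with 4 exons of 615 bases. The form that keeps the exons was at a mean of 0.433 FPKM in the first and 1.56 FPKM in the second. The skipping form, with the same values in both events, was at 0.0179, 0.00793 and 0 FPKM in DHT and 0, 0.0771 and 0.0170 in oil. FPKM of 0 can be a failed estimate in these files.

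DHT and oil libraries did not differ in the total output of long-span circRNAs beyond the spread of replicates. The DHT libraries listed 597, 606 and 523 of them and the oil libraries 569, 521 and 490, that is 575 ± 45.5 against 527 ± 39.8 (SD, n = 3, exact two-sided permutation test, p = 0.2). Such a test of 3 against 3 cannot go below 0.1. Thinned to the smallest library, the numbers were 542 and 515 (exact permutation p = 0.3). Long-span circRNAs took 8.996%, 8.56% and 8.97% of the junction reads in DHT and 9.15%, 8.61% and 8.30% in oil, which overlapped (exact permutation p = 0.7). The pooled circular share was 1.70%, 1.61% and 2.01% in DHT and 1.86%, 2.07% and 1.79% in oil, which overlapped too (exact permutation p = 0.4). The difference in reads changed sign when exonic reads were the denominator or the span limit was 100000 bp, and that in share when only circRNAs in all 6 libraries were summed.

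No single long-span circRNA passed the test between treatments. With edgeR's quasi-likelihood test and Benjamini-Hochberg adjustment over all 2524 circRNAs with at least 20 reads, 0 of the 277 long-span circRNAs with that many reads had an adjusted p under 0.05, and 0 of all 2524 had (background 0%). The other 1063 of the 1340 had too few reads to be tested. An unadjusted p under 0.05 was found for 9 of the 277, 7 higher and 2 lower in DHT, which was 3.25% beside 3.13% of all tested. With at least a 2-fold change as well, it was 7 of 277 (2.53%, background 2.26%). DESeq2 gave 0 adjusted calls and 6 unadjusted ones (2.166%, background 3.01%). The scaled reads of the groups did not overlap for 32 of 277 (11.6%, background 11.1%). The shares called thus lay near the background in each count. By direction, 151 of the 277 were higher in DHT and 126 lower. Their median log2 fold change was 0.08, and over all tested it was 0.01.

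**Figure D5:**
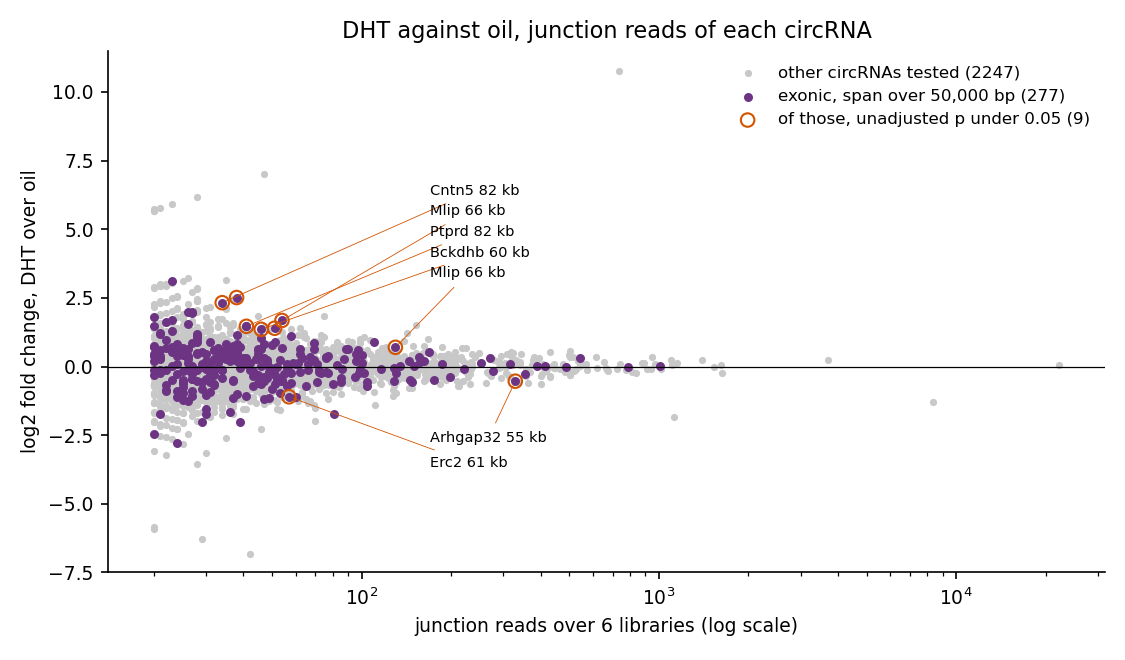
Log2 fold change (DHT over oil, y axis) against junction reads over the 6 libraries (log scale, x axis) for the 2524 circRNAs tested, with the 277 long-span exonic ones in purple and the 9 of them at an unadjusted p under 0.05 circled. The purple points spread evenly about 0, and the spread narrows as reads grow.

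Among the circRNAs with the smallest unadjusted p, these are given as values, since none passed adjustment (adjusted p = 0.996 for each, edgeR). On the higher side Cntn5 had 16, 8 and 5 reads in DHT and 2, 3 and 0 in oil (log2 fold change 2.32 ± 0.93, SE). Mlip, which encodes a lamin-interacting protein, had 15, 17 and 10 in DHT and 7, 5 and 0 in oil (1.68 ± 0.69). Bckdhb, an enzyme subunit of branched-chain amino acid breakdown, had 13, 12 and 9 in DHT and 3, 6 and 3 in oil (1.35 ± 0.57). These 3 have few reads, and none of them overlapped between groups. On the lower side the active-zone gene Erc2 had 6, 7 and 6 in DHT and 10, 16 and 12 in oil (log2 fold change -1.10 ± 0.48, SE). Arhgap32, given above, was at -0.53 ± 0.24. Tasp1 had 11, 3 and 6 in DHT and 11, 11 and 18 in oil (-1.13 ± 0.53), the guanylate cyclase gene Gucy1a2 had 0, 3 and 0 against 7, 3 and 11 (-2.79 ± 1.38), and the zinc finger gene Zfp423 had 3, 3 and 0 against 6, 9 and 8 (-2.02 ± 0.998). In these 5, picked for their p, every oil library was above every DHT library after scaling, and apart from Arhgap32 each had few reads.

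The long-span circRNAs of Mlip were also added up, a sum chosen after its values were seen. They had 106, 108 and 90 reads in DHT and 62, 50 and 42 in oil, which was 2044 ± 118 against 1116 ± 143 CPM (SD, n = 3, ratio 1.83, exact permutation p = 0.1, the smallest possible). The groups did not overlap. The shorter Mlip circRNAs had 153, 111 and 102 reads in DHT and 83, 80 and 110 in oil. Of its 9 long-span circRNAs, those of 52283 bp (40, 28 and 34 against 23, 26 and 17 reads) and 66189 bp (30, 32 and 21 against 19, 14 and 14) made up most of the sum, and that of 56995 bp went the other way (4, 8 and 8 against 11, 5 and 11). The circRNAs of Mlip share sites with each other. Of the 55 hosts with at least 100 such reads, 4 had every DHT library above every oil library and 5 the reverse, which was 16.4%. The 4 were Mlip, Syt1 (ratio 1.68), Magi2 (1.45) and Gas2 (1.43). In the 5 the ratio ran from 0.613 (Ssbp2) to 0.824 (Tasp1). Among 506 hosts with at least 100 reads in shorter exonic circRNAs, the sums of those did not overlap in 11.9%. All exonic reads of a host, a different quantity, did not overlap between groups in 53 of 487 hosts with a long-span circRNA and at least 20 reads (10.9%), beside 10.3% of all 1665 such hosts. Mlip gene expression was 8.94, 4.53 and 9.69 FPKM in DHT and 6.73, 3.76 and 4.89 in oil (limma adjusted p = 0.709), and those groups overlapped.

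Listing in 1 group only was common and came with few reads. Of the 1340, 386 were listed in DHT libraries only (28.8%), 340 in oil only (25.4%) and 614 in both (45.8%). Of the other exonic circRNAs the same was found for 29.0%, 23.9% and 47.1%, so the long-span values lay near these. In all 3 DHT libraries and no oil library there were 9 (0.672%, others 0.816%), and 7 the other way round (0.522%, others 0.242%). Gephyrin's gene Gphn, of the inhibitory postsynapse, had 6, 3 and 6 reads in DHT and was unlisted in oil, where up to 1 read per library can be hidden. Tfdp2, a partner gene of E2F factors, had 4, 7 and 3 reads in oil and was unlisted in DHT. An Mlip circRNA of 92604 bp had 11 and 7 reads in DHT replicates 1 and 2 alone, and a Slc35f1 circRNA had 17 in oil replicate 1 alone. These 2 are each absent from at least 1 replicate of the group that listed them.

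The circular share and the linear reads gave like results for the 170 long-span circRNAs in all 6 libraries with enough reads of both kinds. For the circular share, 0 of 170 passed (edgeR, adjusted p under 0.05, background 0% of 1490), and 10 had an unadjusted p under 0.05 (5.88%, background 5.17%). The smallest unadjusted p among those named was that of Bckdhb, whose share was 6.88%, 7.64% and 6.92% in DHT and 1.76%, 3.87% and 2.48% in oil (log2 difference 1.45 ± 0.55, SE, adjusted p = 0.783). Erc2 had 0.823%, 1.07% and 1.02% in DHT and 1.55%, 2.88% and 2.05% in oil (-1.14 ± 0.46, adjusted p = 0.783). Neither pair of groups overlapped, as for 22 of the 170 (12.9%, background 9.93%). For linear reads, 1 of 170 passed (0.588%, background 1.28%), and 19 had an unadjusted p under 0.05 (11.2%, background 12.1%). The one was Ctnnd2, with 1209, 1030 and 906 linear reads in DHT and 849, 840 and 745 in oil (log2 fold change 0.29, edgeR adjusted p = 0.0495), while its junction reads overlapped. That call was lost when any 1 of the 6 libraries was left out.

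Host gene expression was measured apart from the circRNAs, in FPKM. Of 546 host genes tested, 0 passed (limma, adjusted p under 0.05, background 0.0176% of 11368), and 37 had an unadjusted p under 0.05 (6.78%, background 7.34%). Host genes were at a median of 6.93 FPKM, beside 5.37 FPKM for hosts of shorter exonic circRNAs only. Arhgap32, whose circRNA was lower in DHT, is given because it was among the hosts with the smallest unadjusted p. It had 14.9, 23.7 and 20.3 FPKM in DHT and 34.2, 31.6 and 28.7 in oil, which did not overlap (log2 fold change -0.69 ± 0.18 on log2(FPKM + 0.5), limma adjusted p = 0.652). Its linear reads at the circRNA were 358, 344 and 272 in DHT and 376, 313 and 286 in oil, which overlapped. The host values of Strbp, 39.7, 32.4 and 40.1 FPKM in DHT and 35.6, 34.3 and 36.3 in oil, overlapped as its circRNA did. Hosts of other circRNAs picked above for their p went both ways. The log2 fold change had the sign of the circRNA in Cntn5 (0.33) and Mlip (0.51). It had the opposite sign in Bckdhb (-0.17), Erc2 (0.39), Gucy1a2 (0.21) and Zfp423 (0.10). The host value of Tasp1 is not given here. These values were not centred by library, and 63.6% of all 11368 genes tested were higher in DHT (median log2 fold change 0.07). After centring each of these hosts kept its sign, with Zfp423 at 0.04.

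By function, long-span circRNAs were spread over many gene groups, and 41.0% of their hosts were in any of the groups looked at. Of all 3635 exonic host genes 16.3% had a long-span circRNA. Among synaptic adhesion genes it was 35 of 66 (53.0%), with 75 circRNAs and 1069 reads. It was 23 of 59 for synaptic scaffolds and the active zone (38.98%), 8 of 21 for glutamate receptors (38.1%), 25 of 68 for ion channels (36.8%) and 28 of 78 for regulators of small GTPases (35.9%). RNA-binding proteins had 13 of 47 (27.7%), transcription and chromatin genes 40 of 166 (24.1%), the cytoskeleton 16 of 67 (23.9%), kinases and phosphatases 25 of 136 (18.4%) and receptor tyrosine phosphatases 2 of 11 (18.2%). Genes of the ubiquitin system had 18 of 122 (14.8%) and of cyclic nucleotide signalling 6 of 42 (14.3%). Genes known as frequent circRNA hosts had 21 of 31 (67.7%) and factors that shape circRNA formation 2 of 10. Only long genes can hold such a span, and gene length was not taken into account here. The kinases and phosphatases held the most reads of any group, 3157 in 97 circRNAs (12.6% of the reads of the 1340), Dgki and Stk39 among them. In the test between treatments 0 circRNAs passed in each group. Of all 2524 circRNAs tested, 50.4% were higher in DHT, with a median log2 fold change of 0.01. Higher and lower were 8 and 2 of 10 in adhesion genes (median 0.59), 11 and 7 in scaffolds, 7 and 5 in regulators of small GTPases, 6 and 6 in ion channels, 13 and 11 in transcription and chromatin, and 17 and 18 in kinases and phosphatases. They were 4 and 3 in the cytoskeleton, 2 and 3 in RNA-binding proteins, 1 and 0 in receptor tyrosine phosphatases and 11 and 9 in frequent circRNA hosts, and 0 and 2 each in glutamate receptors, the ubiquitin system and cyclic nucleotide signalling. Of the host genes of the adhesion group, 13 of 33 were higher in DHT in FPKM, with a median log2 fold change of -0.07. In FPKM, 63.6% of all 11368 genes tested were higher in DHT, with a median of 0.07. For the 546 host genes it was 60.1%, with a median of 0.05. The difference of the adhesion group from these was not tested.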

How the data were processed

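The data are 6 libraries, 3 DHT and 3 oil, grouped by their treatment labels. Whole-number counts of back-splice junction reads and of linear reads per circRNA were deposited by the authors, listing only circRNAs of at least 2 reads. A deposited score (SRPBM, junction reads scaled to mapped reads, rounded down by the authors, per the values) was used only to obtain mapped reads. FPKM were deposited by the authors per first-exon, last-exon or splicing event, per the file headers, and a gene value was the larger of the first-exon and last-exon sums. Tools named in the submitters' processing notes are HISAT2 2.0.1, BWA, cutadapt and bcl2fastq 2.17.1.14. The notes also name mm9, but 99.7% of the long-span circRNAs with a host in RefSeq lay within its GRCm38 bounds, so coordinates are treated as GRCm38, as the files give them. The caller and how linear reads were counted: not given in the sources used here, so near-identical genes and overlapping transcripts cannot be told apart.

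circRNAs were matched by location, and an unlisted one was taken as 0. All circRNAs with at least 20 junction reads entered edgeR 4.0.16 in R 4.3.3 (TMM scaling, quasi-likelihood test) and, as an alternative, DESeq2 1.42.0. The circular share was tested in edgeR as the kind-by-group term over junction and linear counts, and genes of at least 0.5 mean FPKM with limma 3.58.1 on log2(FPKM + 0.5), which understates changes of low genes. Adjusted p is Benjamini-Hochberg's over each whole table. Single values were compared by exact permutation tests, and classes within libraries by exact sign-flip tests. The scripts were tested on simulated data. Python 3.11.15, pandas 2.3.3, SciPy and matplotlib were used. No replicates were duplicates: the chi-square of their counts over its degrees of freedom ran from 2.22 to 3.78.

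Members, gene groups and tests were chosen with earlier results of these data known. Named circRNAs are, apart from a few not reported here, the 12 with the most reads, up to 5 in each direction with the smallest unadjusted p, the 5 longest in at least 2 libraries, the 4 highest and 4 lowest shares among those in all 6, the 6 hosts with the most members (ties included), the 5 in 1 group only with the most reads and 3 on each side of the span limit. Those with miRNA hairpins, near-identical ends or skipping events, Stk39 and the Mlip sums were chosen after their values were seen. Alternatives covered scaling, tool, filters, span limit, denominators, pseudocounts and each library left out. The comparisons with shorter circRNAs of the same hosts and with 1 circRNA per host were added after seeing the data.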

Additional observations from a re-analysis of the deposited data

How the results depend on the processing

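No long-span circRNA was called by edgeR or DESeq2 in junction reads under any alternative, nor in circular share, nor any host gene by limma. Over all circRNAs, edgeR made 6 calls at a minimum of 6 reads, 5 with no filter, 2 among those in all 6 libraries and 0 to 1 with a library left out (1 without DHT replicate 2). For linear reads the 19 calls became 6 to 25 with a library left out, and the 1 long-span call (Ctnnd2) became 0 with no filter and 0 to 3 with a library left out, with Tenm2 and Dyrk1a among them without DHT replicate 2, Dyrk1a without oil replicate 3, never Ctnnd2. Genes called by limma went from 2 to 1 with a pseudocount of 0.1 and to 0 to 4 with a library left out.

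The difference in junction reads (0.152 percentage points) became -0.0150 at spans over 100000 and -0.130 over exonic reads, and ran from -0.0420 to 0.385 with a library left out. The difference in pooled share (-0.132) became 0.0580 over circRNAs in all 6 libraries. Against shorter circRNAs, median junction reads (-0.167) became -1.17 with 1 circRNA per host and -1.67 among circRNAs in all 6 libraries (exact sign-flip p = 0.031 for both), and ran from -0.400 to 0 with a library left out. Among circRNAs in all 6 libraries, the same circRNAs were measured in each library. Median linear reads became -17.9 and median share -0.209 against the same hosts. With a library left out, linear reads ran from 42.2 to 48.6 and the share from -0.516 to -0.451, where 5 libraries cannot give a p below 0.0625. The part in all libraries, which counts the same circRNAs in each library, ran from -3.04 to -2.66. The causes were not tested.

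Of 26 single circRNAs, 8 changed sign under some alternative, in 28 of 290 values, none with an adjusted p under 0.05. Ncoa2 (-0.02) became 0.00679 under DESeq2, 0.00551 with its size factors, 0.0148 at 6 reads, 0.0187 in all 6 libraries, 0.0163 with no filter and 0.0442 with mapped reads. Kcnt2 (-0.01) became 0.0111, 0.0116, 0.0296, 0.03132, 0.0287 and 0.0640 under the same settings. With a library left out, the log2 fold change ran from -0.153 to 0.0667 for Ncoa2, -0.482 to 0.310 for Kcnt2, -0.144 to 0.172 for Strbp, -0.134 to 0.177 for Hivep2, -0.324 to 0.145 for Ctnnd2, -0.00884 to 0.327 for Ralgps1, -0.00437 to 0.923 for Cep112 and -0.0959 to 0.626 for Syt1. No paired analysis was possible because the labels give the groups no replicate numbers in common. Most circRNAs had too few reads for a test, which limits what these data can show.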
